A study of Homo sapiens with 6 samples.

Results

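The growth factor amphiregulin (AREG), 5 further ligands of the epidermal growth factor (EGF) family and the 4 ERBB receptors were examined in the transcriptome of human cardiomyocytes given alcohol with or without losartan. The 10 genes, AREG, EREG, HBEGF, BTC, TGFA, NRG1, EGFR, ERBB2, ERBB3 and ERBB4, were matched by gene symbol, and all 10 were found among the 21134 genes of the expression table. AREG was selected on its low values in cells given both agents. Its values in the comparisons with those cells are therefore a description with no test.

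Cardiomyocytes differentiated from stem cells (hiPSC-CMs) were sequenced in 3 groups of 2 libraries. The control cells received neither agent, the alcohol group received 100 mM alcohol for 24 h, and the co-treated group received 100 mM alcohol together with 1 μM losartan, a blocker of the angiotensin II type 1 receptor, for 24 h. All 6 libraries came from cells labelled H9, which is a single line of human embryonic stem cells. No group given losartan alone was analysed here, so the co-treated cells differ from control cells in both agents. Nothing in the labels says whether replicates were separate differentiations, so p-values measure only the spread between these libraries, which may be technical.

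EGF family ligands are made as membrane-anchored precursors, and proteases of the ADAM family cut most of them free. AREG and TGFA bind EGFR, whereas HBEGF, EREG and BTC bind both EGFR and ERBB4, and the neuregulins NRG1 and NRG2 bind ERBB3 and ERBB4. Bound receptors pair up, with ERBB2, which has no known ligand of its own, as a common partner, and they activate the RAS–ERK and PI3K–AKT cascades. In the heart, neuregulin signalling through ERBB4 and ERBB2 is known for its role in the growth and survival of cardiomyocytes.

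Library totals ran from 4898287 to 5051448 expected counts, so a floor of 3 counts corresponded to 0.594 to 0.612 CPM (counts scaled to library size) on these totals, before any TMM scaling. The 11 cardiomyocyte markers examined were all above 1 FPKM (fragments scaled to transcript length and to library size) in every library. Their summed level was 26110 to 26709 FPKM in the control, 19487 to 25997 in the alcohol and 22325 to 24433 in the co-treated libraries, and alcohol replicate 2 was the lowest. The largest part was MYL7, at 14512.3 and 16179.8 FPKM in control, 12612.1 and 9321.12 in alcohol, and 10240.5 and 11846.5 in co-treated libraries. In CPM, 3 of the 11 lay below control without overlap and 2 above it in alcohol cells. In co-treated cells 4 lay below and 2 above. Alcohol replicate 2 also had the lowest sum of the 4 smooth muscle markers, which was 1689 to 1926 FPKM in control, 722 to 1451 in alcohol and 991 to 1036 in co-treated cells. Over all genes, 10 were called in alcohol vs. control (adjusted p under 0.05, edgeR), with 220 called when alcohol replicate 1 was left out and 1 when replicate 2 was.

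AREG lies on chromosome 4 at chr4:74445136-74455005 on the plus strand (GRCh38.p14, RefSeq). Its nearest protein-coding neighbours are other EGF family genes, EREG 56386 bases away on the same strand and BTC 289753 bases away on the minus strand. To compare these neighbours, the 250 bases directly before the start of each gene are shown 5′ to 3′, from RefSeq. They cover chr4:74444886-74445135 and chr4:74364895-74365144 on the plus strand. Capitals mark 3 motifs that were searched on both strands, the cAMP response element (CRE, TGACGTCA), its half-site TGACG and the TATA box TATAAA, and every full CRE contains the half-site on each strand.
AREG: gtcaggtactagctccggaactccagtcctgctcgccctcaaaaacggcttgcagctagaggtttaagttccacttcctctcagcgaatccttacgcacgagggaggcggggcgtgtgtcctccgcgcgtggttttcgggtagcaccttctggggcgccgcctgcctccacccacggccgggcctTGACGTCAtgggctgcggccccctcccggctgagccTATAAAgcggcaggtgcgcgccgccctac
EREG: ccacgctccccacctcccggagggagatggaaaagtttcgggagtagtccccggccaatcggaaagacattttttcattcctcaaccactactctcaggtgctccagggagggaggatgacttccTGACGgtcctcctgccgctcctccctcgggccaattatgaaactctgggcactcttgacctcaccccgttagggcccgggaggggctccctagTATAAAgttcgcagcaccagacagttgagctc
The full CRE starts 65 bases before the start of AREG and the TATA box starts 29 bases before it. EREG has a single half-site 125 bases before its start and a TATA box 32 bases before it. Of 27305 promoters of this length, 1.77% hold the full CRE, 21.7% the half-site and 11.1% the TATA box. AREG was the only gene with the full CRE among the 13 of 15 EGF family and ERBB genes that had a promoter entry. HBEGF had neither the half-site nor the TATA box. An AP-1 site, a GC box (GGGCGG), a TEAD site (GGAATG) and an E box were searched as well and are not marked. AREG held 1 GC box and no TEAD site, and EREG held 1 TEAD site and no GC box. Neither held an AP-1 site or an E box. Of all promoters, 42.3% hold the GC box and 11.9% the TEAD site. These matches describe the letters in the window and were not tested as binding sites.

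AREG, an EGFR ligand, was counted 12 and 27 times in the control libraries, 7 and 5 times in the alcohol libraries, and 1 and 0 times in the co-treated libraries. In FPKM these were 1.86 and 4.21, then 1.09 and 0.8, then 0.16 and 0. No value of one group reached into another, and both co-treated values were below the 3-count floor, which is 0.465 FPKM for this gene. In a bulk sample, fewer cells that express a gene and less RNA per cell cannot be told apart.

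The summed AREG counts were 39 in control and 12 in alcohol cells, a ratio of 3.21 after scaling to library size, with an exact 95% interval of 1.65 to 6.73. That interval covers counting error only. Across replicates, the fitted log2 fold change of AREG in alcohol vs. control was -1.70 (n = 2 libraries a group), and the adjusted p of 0.332 (edgeR) did not pass. AREG was in the test only because its control counts carried it over the filter. The ratio with its interval and the fitted value with its p are therefore descriptions. The fitted value stayed negative with each library left out, and was -2.14 when control replicate 1 was left out and -1.0 when control replicate 2 was. The control libraries used here also enter the comparison with co-treated cells. Against the single AREG count of the co-treated group, the ratio was 12 for alcohol over co-treated cells and 38.4 for control over co-treated cells. These last ratios are the values on which AREG was selected. They move strongly with 1 library, and the fitted log2 fold change from control to co-treated cells became -4.14 when co-treated replicate 2 was left out and -7.30 when replicate 1 was. The smooth muscle sums given above, and the sum of 11 epithelial and endoderm markers (1007 to 1140 FPKM in control, 652 to 976 in alcohol and 725 to 800 in co-treated cells), were lower in the exposed cells as well, and their part in the AREG values was not tested. The epithelial and endoderm sum followed KRT8 and KRT18, which did not overlap with control in either exposed group, whereas 3 others that passed the filter (EPCAM, AFP and APOA1) lay above control without overlap in both. Among the smooth muscle markers, 3 lay below control without overlap in both exposed groups, and CNN1 overlapped. Of the smooth muscle and the epithelial and endoderm markers, 4 of 4 and 7 of 11 were above 1 FPKM in every library, and none was at 0 throughout.

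**Figure D1:**
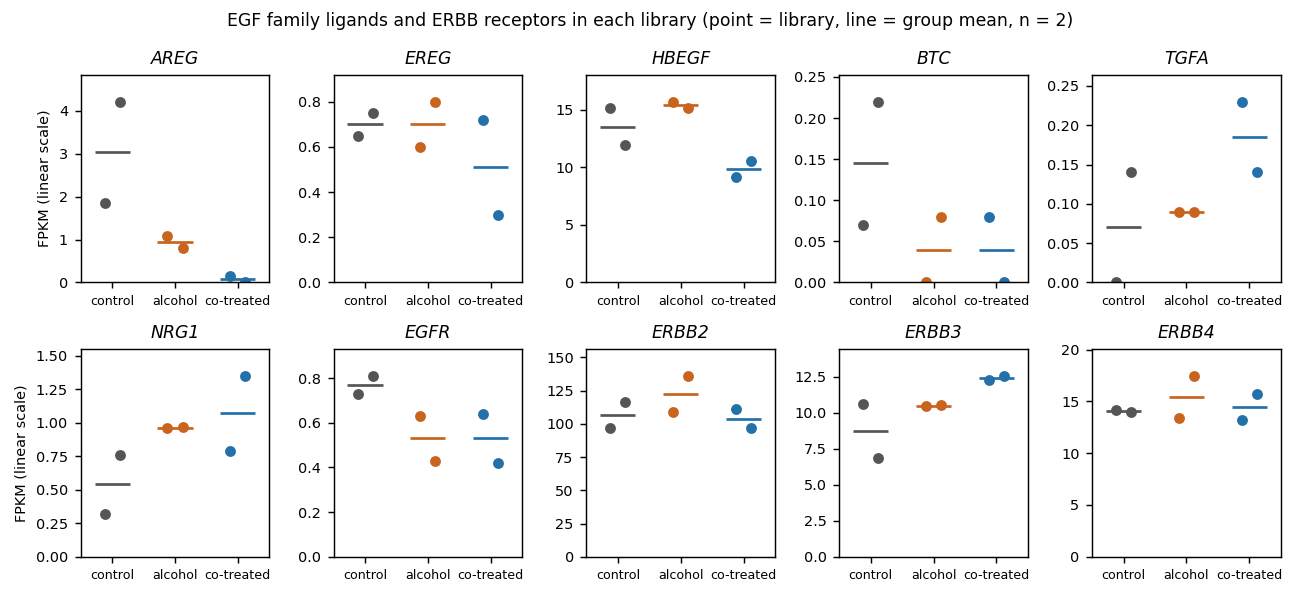
FPKM of the 10 members in each library, on a linear axis that starts at 0, with 1 point per library, a line at the mean of each group (n = 2) and a separate scale per gene. AREG lies between 1.86 and 4.21 in control and at 0.16 or below in co-treated libraries, whereas ERBB2 stays between 96.5 and 136 throughout.

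HBEGF, which encodes heparin-binding EGF-like growth factor, was the most abundant member ligand. Its level was 15.12 and 11.92 FPKM in control, 15.71 and 15.16 in alcohol, and 9.17 and 10.52 in co-treated libraries. The co-treated libraries were the lowest of the 6, and in FPKM both control libraries lay below both alcohol libraries, whereas their CPM overlapped. HBEGF was 0.635 times its alcohol level in co-treated cells, a log2 fold change of -0.65 (SE 0.18, 95% interval -1.04 to -0.27, adjusted p = 0.646, edgeR). Against control the log2 fold change was -0.50 (SE 0.18, 95% interval -0.89 to -0.11, adjusted p = 0.263), and in alcohol vs. control it was 0.15 (95% interval -0.22 to 0.52, adjusted p = 0.816). Neither of the lower values passed over all genes tested. HBEGF made up 66.2% to 85.5% of the summed FPKM of the 6 member ligands. Without AREG, that sum was 16.2 and 13.8 in control, 17.4 and 17.1 in alcohol, and 11 and 12.3 FPKM in co-treated libraries.

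EREG, the neighbour of AREG, encodes epiregulin. Its level was 0.65 and 0.75 FPKM in control, 0.6 and 0.8 in alcohol, and 0.72 and 0.3 in co-treated libraries, and the groups overlapped. The log2 fold change was -0.06 in alcohol vs. control (95% interval -1.12 to 0.99), -0.47 in co-treated vs. alcohol (-1.58 to 0.63) and -0.54 in co-treated vs. control (-1.64 to 0.56), with adjusted p of 0.727 or more (edgeR). The counts behind these values were 6.99 to 18.4 per library.

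BTC (betacellulin) and TGFA (transforming growth factor alpha) did not pass the expression filter. BTC had 1 and 3 counts in control, 0 and 1 in alcohol, and 1 and 0 in co-treated libraries. TGFA had 0 and 3, 2 and 2, and 5 and 3 counts in the same order. No fold change is given for either gene. PARM1, the neighbour of BTC on the side away from AREG, was measured at 24.66 and 26.33 FPKM in control, 33.61 and 46.24 in alcohol, and 36.23 and 39.38 in co-treated libraries (adjusted p = 0.125 and 0.123 against control, edgeR).

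NRG1 encodes neuregulin 1, the main neuregulin of the heart. Its FPKM was 0.32 and 0.76 in control, 0.96 and 0.97 in alcohol, and 0.79 and 1.35 in co-treated libraries. Both exposed groups lay above control without overlap, and they overlapped each other. The log2 fold change against control was 1.07 in alcohol cells (SE 0.59, 95% interval -0.19 to 2.34, adjusted p = 0.545) and 1.02 in co-treated cells (SE 0.59, 95% interval -0.26 to 2.29, adjusted p = 0.514), and neither passed the edgeR test. Leaving out control replicate 1 gave 0.64 and 0.57 in place of these values, leaving out control replicate 2 gave 1.76 and 1.69, and leaving out co-treated replicate 2 gave 0.59 for co-treated cells. The counts behind them were 4 and 9 in control against 10 to 17 in the exposed libraries. NRG1 was in the test only because its exposed counts carried it over the filter, so its values against control are a description.

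Among the receptors, ERBB2 had the highest level in every library. It measured 96.76 and 116.25 FPKM in control, 108.6 and 135.99 in alcohol, and 110.82 and 96.55 in co-treated libraries, and contributed 77.1% to 84.3% of the summed FPKM of the 4 receptors. The groups overlapped in FPKM, whereas in CPM both co-treated libraries (511 and 456) lay below both alcohol libraries (524 and 618). The log2 fold change was 0.16 in alcohol vs. control (95% interval -0.13 to 0.45), -0.24 in co-treated vs. alcohol (-0.53 to 0.05) and -0.08 in co-treated vs. control (-0.37 to 0.21). ERBB2 overlaps MIEN1 in the annotation, and MIEN1 stood at 19.78 to 22.41 FPKM in the 6 libraries.

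ERBB4, the receptor for neuregulins on cardiomyocytes, was similarly even. Its FPKM was 14.12 and 13.97 in control, 13.37 and 17.45 in alcohol, and 13.19 and 15.71 in co-treated libraries. All 3 comparisons had intervals within -0.39 to 0.39 on the log2 scale, and the adjusted p was 0.864 or more (edgeR).

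ERBB3, a receptor with little kinase activity of its own that signals through its partners, had 198.76 and 129.02 counts in control, 224.56 and 218.99 in alcohol, and 258.08 and 257.98 in co-treated libraries. By counts the 3 groups did not overlap, with co-treated cells highest and control cells lowest. The log2 fold change was 0.42 in alcohol vs. control (SE 0.19, adjusted p = 0.438), 0.21 in co-treated vs. alcohol (SE 0.18, adjusted p = 0.937) and 0.63 in co-treated vs. control (SE 0.19, 95% interval 0.23 to 1.03, adjusted p = 0.172, edgeR). None passed, and the last value was 0.34 without control replicate 2 and 0.99 without control replicate 1. In FPKM, which divides by transcript length, ERBB3 was 10.62 and 6.88 in control, 10.45 and 10.5 in alcohol, and 12.26 and 12.54 in co-treated libraries, so that control and alcohol overlapped.

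The transcript length deposited for ERBB3 differed between the groups. This length is the mean over a gene's transcripts, weighted by their estimated abundance, and 2 ERBB3 transcripts were listed. It was 3684 and 3702 bases in control, 4223 and 4223 in alcohol, and 4269 and 4065 in co-treated libraries. The mean of the 4 exposed libraries, 4195 bases, was 1.14 times the control mean of 3693. Among 4398 genes with at least 100 counts in every library and a length that varied, 13.3% had lengths that did not overlap between exposed and control libraries, and 11 (0.25%) had a ratio as high as that of ERBB3. The ERBB3 length was singled out after its values were seen, and no test was made of it. ERBB3 was not the only member with such lengths. NRG1 was at 2469 and 2363 bases in control, 3069 and 2728 in alcohol, and 2588 and 2498 in co-treated libraries. The NRG1 lengths rest on 4 to 17 counts per library.

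**Figure D2:**
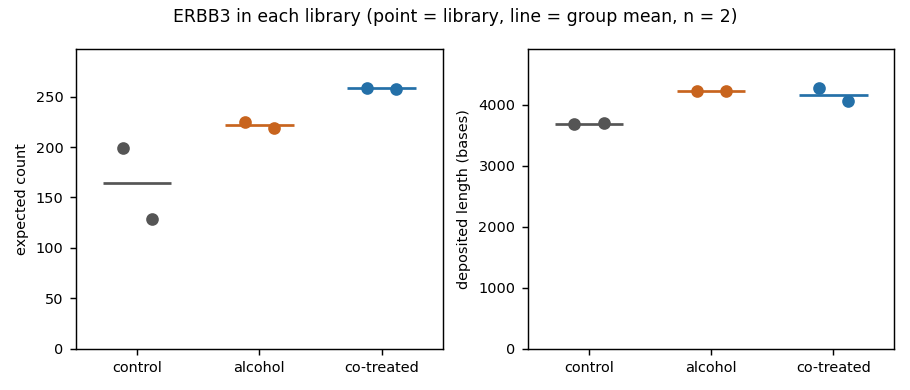
ERBB3 expected counts (left) and the deposited ERBB3 transcript length in bases (right) in each library, both axes from 0, with 1 point per library and a line at the group mean (n = 2). Both quantities are lowest in the control libraries, where the lengths are 3684 and 3702 bases against 4065 to 4269 in the exposed libraries.

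EGFR, the receptor for AREG, was the least expressed of the receptors. It was 0.73 and 0.81 FPKM in control, 0.63 and 0.43 in alcohol, and 0.64 and 0.42 in co-treated libraries. Both exposed groups lay below control and overlapped each other. The log2 fold change was -0.83 in alcohol vs. control (SE 0.44, 95% interval -1.77 to 0.12, adjusted p = 0.524) and -1.01 in co-treated vs. control (SE 0.45, 95% interval -1.98 to -0.05, adjusted p = 0.365, edgeR), from 21 and 23 counts in control and 10 to 13 in the others. The deposited EGFR length was 5616 bases in both control libraries, 4089 and 5616 in alcohol, and 3183 and 5616 in co-treated libraries. In FPKM the differences were smaller. With limma on log2(FPKM + 0.1) they were -0.48 and -0.49, and on log2(FPKM + 1) both were -0.21. The antisense gene EGFR-AS1 overlaps EGFR and had 1 to 5 counts per library. Whether the counting used the strand is not given in the sources used here, so reads from the overlap could belong to either.

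The summed levels of the 5 endothelial and of the 9 fibroblast markers were higher in the exposed groups, as were ERBB3 and NRG1. The endothelial markers summed to 5.88 to 6.86 FPKM in control, 7.43 to 8.53 in alcohol and 8.9 to 10.5 in co-treated cells, 1 of 5 was above 1 FPKM in every library, and none was at 0 throughout. The endothelial sum followed KDR, at 3.7 and 4 FPKM in control and 5.18 to 7.7 in the exposed libraries. CDH5, at 0.24 and 0.33 FPKM in control, was also above control without overlap in co-treated cells (0.48 and 0.78), PECAM1 and TEK overlapped with control, VWF did not pass the filter, and none of the 5 was called (edgeR, adjusted p under 0.05). The fibroblast markers summed to 422 to 467 FPKM in control, 482 to 516 in alcohol and 468 to 518 in co-treated cells. Of the 8 that passed the filter, 1 lay above and 1 below control without overlap in CPM in alcohol cells. In co-treated cells 2 lay above and none below. The part of either set of markers in the ERBB3 and NRG1 values was not tested.

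Of the 10 members, 8 passed the filter on low counts. AREG, which passed through its control level, is left out of the following counts. NRG1, which passed through the exposed libraries, is kept in them and is among those whose CPM did not overlap with control. None of the other 7 was called in alcohol vs. control (edgeR, adjusted p under 0.05), where 0.067% of all 14926 genes tested were called. In that comparison ERBB3 alone had an unadjusted p under 0.05, 1 of 7 beside 11% of all genes, and the CPM of 3 of 7 did not overlap between groups beside 43.8% of all genes. For co-treated vs. alcohol, 0 of 7 were called beside 0.0134% of all genes. There HBEGF alone had an unadjusted p under 0.05, 1 of 7 beside 5.55%, and 3 of 7 did not overlap beside 33.6%. For co-treated vs. control, 0 of 7 were called beside 0.362%, 3 of 7 had an unadjusted p under 0.05 (ERBB3 higher, HBEGF and EGFR lower) beside 12.6%, and 4 of 7 did not overlap beside 43.3%. Of the genes called over the whole table, 9 were higher and 1 was lower in alcohol vs. control, 1 and 1 in co-treated vs. alcohol, and 32 and 22 in co-treated vs. control. DESeq2 gave an adjusted p for 3 of the 7 in alcohol vs. control (ERBB2, ERBB3 and ERBB4), for 7 in co-treated vs. alcohol and for 4 in co-treated vs. control (those 3 and HBEGF), and called none of these.

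**Figure D3:**
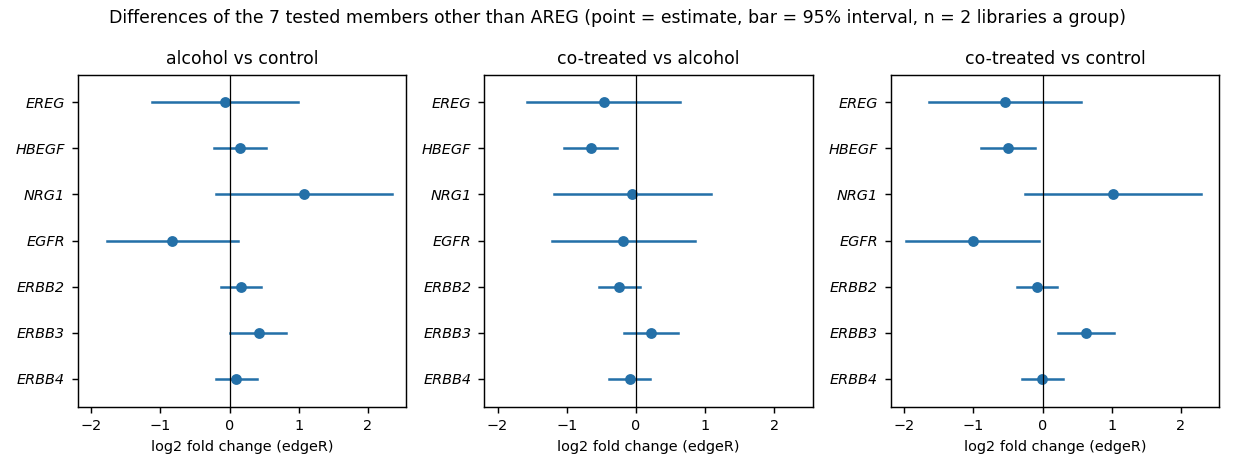
Log2 fold changes (edgeR) of the 7 members other than AREG that passed the filter, in the 3 comparisons, with points at the estimate and bars for the 95% interval (n = 2 libraries a group). The bar of HBEGF ends below 0 against both other groups in co-treated cells, and that of ERBB3 lies between 0.23 and 1.03 in co-treated vs. control. NRG1 passed the filter through its exposed libraries.

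On the per-length FPKM scale, the 15 ligand and receptor genes fell into steps. ERBB2 came first with 111 ± 14.6 FPKM (mean ± SD over the 6 libraries, with groups pooled) and did not overlap with any other. ERBB4 (14.6 ± 1.64), HBEGF (12.9 ± 2.77) and ERBB3 (10.5 ± 2.02) followed, each overlapping the next. EGF, the founding ligand of the family, came next at 4.75 ± 0.87, below ERBB3 and above NRG2 in every library, and it overlapped with the highest AREG library. NRG2 (1.88 ± 0.452), AREG (1.35 ± 1.55), NRG1 (0.858 ± 0.337), NRG4 (0.672 ± 0.401), EREG (0.637 ± 0.18) and EGFR (0.61 ± 0.158) formed a chain in which neighbours overlapped. EGFR lay above EPGN in all 6 libraries, and EPGN (0.32 ± 0.0648), NRG3 (0.228 ± 0.132), TGFA (0.115 ± 0.0761) and BTC (0.075 ± 0.0804) were lowest and overlapped with their neighbours in the order. AREG held the place between NRG2 and NRG1 only as a mean, since its single libraries ran from 0 to 4.21 FPKM.

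**Figure D4:**
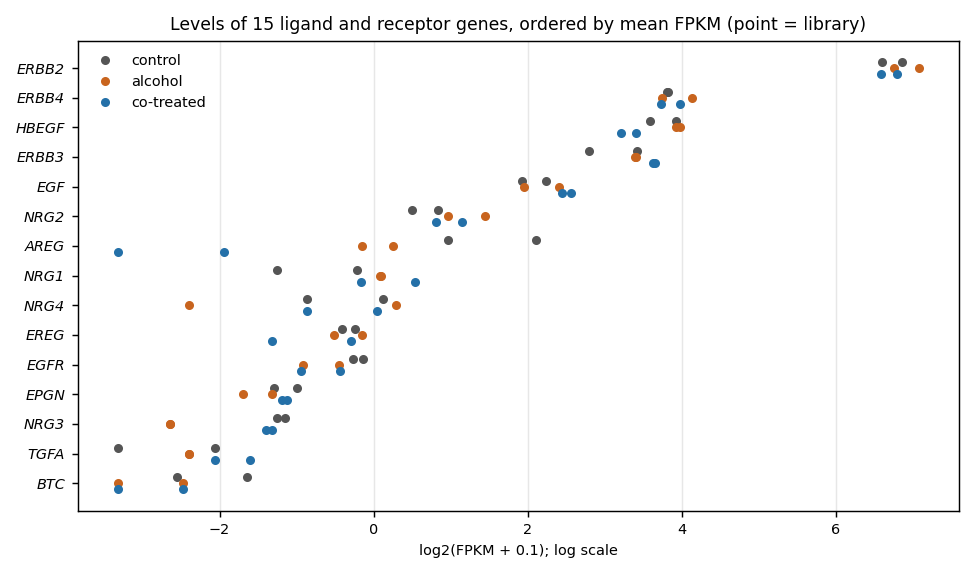
Levels of the 10 members and 5 further EGF family ligands on a log scale, log2(FPKM + 0.1), ordered by mean FPKM, with 1 point per library coloured by group. ERBB2 is separate from the rest, with a lowest value of 96.5 FPKM, and AREG runs from 0 to 4.21 FPKM.

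The 5 EGF family ligands outside the selected genes were looked at for comparison. EGF itself was 3.7 and 4.63 FPKM in control, 3.78 and 5.19 in alcohol, and 5.34 and 5.84 in co-treated libraries, a log2 fold change of 0.37 in co-treated vs. control (95% interval -0.04 to 0.78, edgeR adjusted p = 0.453). NRG2 was 1.32 to 2.63 FPKM and NRG4 was 0.09 to 1.12 FPKM over the 6 libraries, and their adjusted p was 0.546 or more in each comparison. NRG4 overlaps FBXO22 and TMEM266 in the annotation. EPGN (epigen) and NRG3 did not pass the filter. NRG3 had 6 and 6 counts in control, 1 and 1 in alcohol, and 5 and 5 in co-treated libraries, so that the alcohol libraries were under the 3-count floor and the others above it.

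The other genes of the pathway were counted by their roles. These lists and those that follow were chosen with earlier results of these data known. Their counts beside all genes are therefore descriptions. Of 13 sheddases and trafficking genes that process the ligand precursors, 13 were tested and none was called in any comparison (edgeR). The smallest p in co-treated vs. control belonged to FRMD8, a partner of the iRhom proteins that carry ADAM17 to the cell surface (log2 fold change -0.52, adjusted p = 0.248), and ADAM19, a metalloprotease (-0.67, adjusted p = 0.264). At an unadjusted p under 0.05, 2 of 13 were lower and none higher in that comparison, beside 12.6% of all genes in either direction, and none in either direction in the other comparisons. In alcohol vs. control the smallest p values were those of ADAM19 (-0.48, adjusted p = 0.497) and RHBDF2, which encodes an iRhom (-0.95, adjusted p = 0.51). In co-treated vs. alcohol they were those of TIMP3, an inhibitor of metalloproteases, and FRMD8 (adjusted p = 0.923 for each).

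Of 29 adaptors and kinases, 29 were tested and none was called in any comparison, with a median log2 fold change of -0.06 in co-treated vs. control beside -0.0017 for all genes. At an unadjusted p under 0.05, 3 of 29 differed in alcohol vs. control beside 11% of all genes, 0 in co-treated vs. alcohol beside 5.55% and 4 in co-treated vs. control beside 12.6%, shares near or below those of all genes. STAT3, a transcription factor activated by receptor kinases and cytokine receptors, came nearest to the threshold. It was 31.69 and 32.11 FPKM in control, 39 and 44.85 in alcohol, and 45.86 and 45.59 in co-treated libraries, a log2 fold change of 0.48 against control in co-treated cells (SE 0.11, adjusted p = 0.0885, edgeR). GAB1, a docking adaptor of the EGF receptor, was 27.36 to 31.39 FPKM in control and 36.51 to 39.93 in the exposed libraries (adjusted p = 0.305 in alcohol and 0.348 in co-treated cells). ARAF and STAT5B had the smallest p in co-treated vs. alcohol (adjusted p = 0.915 for each).

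Of 21 negative regulators of the receptors and of ERK, 20 were tested and 1 was called. It was SPRY4 in co-treated vs. control, where 0.362% of all genes were called. SPRY4 encodes a Sprouty protein that restrains RAS–ERK signalling and is itself induced by it. Its level was 6.65 and 4.83 FPKM in control, 3.66 and 1.82 in alcohol, and 1.25 and 1.65 in co-treated libraries, without overlap between any of the groups. It fell by 2.03 on the log2 scale in co-treated vs. control cells (SE 0.32, edgeR adjusted p = 0.0203), and its log2 fold change was -1.11 in alcohol vs. control (SE 0.29, adjusted p = 0.17) and -0.91 in co-treated vs. alcohol (SE 0.34, adjusted p = 0.857). The call was lost without either co-treated library (adjusted p = 0.157 and 0.308). SPRY2, a second Sprouty gene, was 15.63 to 18.72 FPKM in control, 11.23 to 12.99 in alcohol and 10.24 to 10.74 in co-treated libraries (adjusted p = 0.0787 in co-treated vs. control). DUSP6, an ERK phosphatase, was 2.34 to 3.77 FPKM in control, 2.03 to 2.74 in alcohol and 1.27 to 1.32 in co-treated libraries (adjusted p = 0.12). The median of the list was -0.01, so these low values were not shared by most of its genes.

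Of 13 transcripts known to be induced by ERK, 11 were tested. In co-treated vs. control all 11 had a lower estimate, with a median log2 fold change of -0.67 beside -0.0017 for all genes. Of the 11, 1 was called, beside 0.362% of all genes. That gene was ETV1, an ETS family transcription factor, at 19.27 and 16.83 FPKM in control, 14.11 and 13.67 in alcohol, and 9.54 and 10.46 in co-treated libraries. ETV1 fell by 0.91 on the log2 scale in co-treated vs. control (SE 0.13, edgeR adjusted p = 0.0113), and the call was lost without co-treated replicate 1 (adjusted p = 0.11), co-treated replicate 2 (0.207) or control replicate 1 (0.0512). At an unadjusted p under 0.05, 5 of 11 were lower and none was higher, beside 12.6% of all genes in either direction. In co-treated vs. alcohol 10 of 11 were lower with a median of -0.36 and none called, and the median was -0.01 without alcohol replicate 1. In alcohol vs. control 7 of 11 were lower with a median of -0.26 and none called, and the median became -0.56 when alcohol replicate 1 was left out and 0.0039 when replicate 2 was. At an unadjusted p under 0.05 (edgeR), 2 of 11 were lower and none higher in co-treated vs. alcohol, beside 5.55% of all genes. The same counts held in alcohol vs. control, beside 11%. IER3, an early response gene, was 43.97 to 49.76 FPKM in control, 40.88 to 52.16 in alcohol and 27.34 to 29.71 in co-treated libraries (adjusted p = 0.471 against alcohol and 0.0776 against control). EPHA2, a receptor kinase, was 12.71 to 15.34, 7.45 to 12.01 and 8.02 to 8.94 FPKM in the same order (adjusted p = 0.339 in alcohol vs. control).

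AREG is also known as a target of the coactivator YAP and of cAMP signalling, so both sets of targets were listed. Of 12 YAP targets, all 12 were tested. In alcohol vs. control 7 had a lower estimate (median log2 fold change -0.08) and in co-treated vs. alcohol 10 had (-0.33), with none called beside 0.067% and 0.0134% of all genes. At an unadjusted p under 0.05 (edgeR), 1 was lower and 1 higher in alcohol vs. control, beside 11% of all genes. In co-treated vs. alcohol 5 were lower and none higher, beside 5.55%, and 7 were lower without overlap in CPM, beside 33.6%. In co-treated vs. control 10 had a lower estimate, with a median of -0.41 beside -0.0017 for all genes. At an unadjusted p under 0.05 (edgeR), 6 were lower and 1 higher there, beside 12.6% of all genes in either direction. Of the 12, 1 was called in that comparison, beside 0.362% of all genes. The gene called was ANKRD1, a cardiac ankyrin repeat protein, at 1550.87 and 1061.85 FPKM in control, 1114.28 and 523.9 in alcohol, and 454.51 and 479.73 in co-treated libraries. It fell by 1.53 on the log2 scale (SE 0.29, edgeR adjusted p = 0.041). The call was lost without co-treated replicate 1 (adjusted p = 0.217), co-treated replicate 2 (0.37) or control replicate 1 (0.0988), and with DESeq2 (0.159). In co-treated vs. alcohol, CYR61, a secreted matrix protein, was 14.86 to 17.86 FPKM in co-treated against 24.44 to 32.52 in alcohol libraries (adjusted p = 0.461), and AMOTL2, an angiomotin, was 11.9 to 14.4 against 17.69 to 20.54 (adjusted p = 0.587). F3, which encodes tissue factor, was 3.73 to 4.4 FPKM in control and 5.37 to 6.9 in alcohol libraries (adjusted p = 0.401). The smooth muscle sum, lower in the exposed groups as given above, moved in the same direction as SPRY4, ETV1 and ANKRD1. Of its markers, 1 of 4 was called in co-treated vs. control, beside 0.362% of all genes. ACTA2, MYH11 and TAGLN lay below control without overlap in both exposed groups. CNN1 overlapped, at 279.07 and 416.88 FPKM in control, 177.47 and 421.72 in alcohol, and 275.8 and 310.7 in co-treated libraries. The part of these markers in the values above was not tested.

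Of 10 cAMP and CREB targets, 9 were listed and 7 were tested. None was called in co-treated vs. control, beside 0.362% of all genes, or in the other comparisons. Their median log2 fold change was 0.18 in alcohol vs. control and 0.31 in co-treated vs. control, beside -0.0033 and -0.0017 for all genes. In co-treated vs. control 2 were higher and 1 lower at an unadjusted p under 0.05 (edgeR), beside 12.6% of all genes. There 3 lay above and 1 below control without overlap in CPM, beside 43.3%. PDE4B, a phosphodiesterase that breaks down cAMP, was 1.77 and 2.14 FPKM in control and 2.73 to 4.51 in the exposed libraries (adjusted p = 0.437 and 0.189). CREM, a CREB family factor, was 51.93 and 52.2 FPKM in control, 46.44 and 54.42 in alcohol, and 41.43 and 42.96 in co-treated libraries (adjusted p = 0.239 in co-treated vs. control). PDE4D and CRTC2 had the remaining smallest p values (adjusted p = 0.628 in alcohol vs. control and 0.915 in co-treated vs. alcohol).

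**Figure D5:**
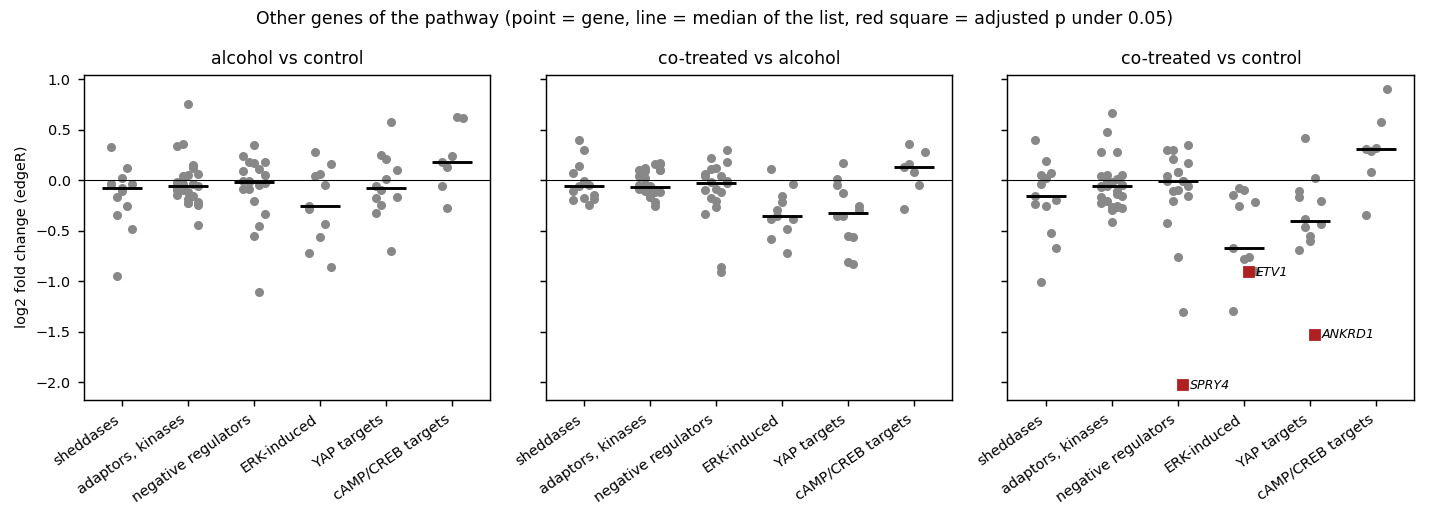
Log2 fold changes (edgeR) of the tested genes of 6 lists in the 3 comparisons, with 1 point per gene, a line at the median of the list and red squares for genes with an adjusted p under 0.05. The median of the ERK-induced transcripts is -0.67 in co-treated vs. control, and SPRY4, ETV1 and ANKRD1 are the genes called.

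The genes whose profile was most like that of AREG were found among 2700 genes of similar abundance, by the root mean square difference between log2 CPM profiles centred on each gene's own mean over the 6 libraries. This difference was 0.70 for FZD9, a Wnt receptor, 0.72 for POTEE, 0.74 for RASD2, a small GTPase, 0.75 for NPY4R, a neuropeptide receptor, and 0.76 for KCP, beside a median of 1.37 for all candidates. FZD9 had 13 and 15 counts in control, 11 and 6 in alcohol, and 6 and 2 in co-treated libraries. NPY4R had 0 counts in both co-treated libraries and 5.01 to 16 in the others. POTEE and NPY4R have near-identical copies in the genome, so their counts are uncertain. All 5 are low-count genes, and the likeness is a description.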

How the data were processed

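RNA of 6 libraries was measured, 2 in each of 3 groups set by the treatment in the labels. The deposited values of each library are an expected count per gene, together with FPKM and a transcript length, all made by the authors, and 33.9% of the expected counts are not whole. The submitters' processing notes name HISAT2 2.0.4, Bowtie2 2.2.5 and RSEM 1.2.12 and the build hg38. The series table, which holds the same kind of FPKM deposited by the authors, served for gene symbols alone, and 6 columns of it were not used because their names do not fix the sample.

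Expected counts were rounded and tested with edgeR 4.0.16 in R 4.3.3 (quasi-likelihood F test, two-sided, TMM, filterByExpr, all 6 libraries in 1 fit, Benjamini-Hochberg adjustment over 14926 genes, threshold 0.05). The code was tested on simulated data. CPM are TMM-scaled, except for the floor. Alternatives were DESeq2 1.42.0, limma 3.58.1 on log2(FPKM + 1) and log2(FPKM + 0.1), DESeq2 size factors, no filter, at least 10 counts in every library, a replicate block, the 4 libraries of a comparison alone, and each library left out. FPKM were used to compare levels between genes. Promoters and loci came from RefSeq (GRCh38.p14). NRG1 and ERBB3 had no promoter entry.

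The members and lists were chosen with earlier results of these data known. Named are the members, the 5 other ligands, list genes called in any comparison, where none was called the 2 with the smallest p in each comparison, the 5 genes nearest to AREG, and neighbours or overlapping genes. SPRY2, DUSP6, IER3, EPHA2, CYR61, AMOTL2 and F3 are those with the smallest p in a comparison without a call. With 2 libraries a group, precision is limited, and intervals and floors on counts cover counting error only.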

Additional observations from a re-analysis of the deposited data

How the results depend on the processing

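None of the 14 alternatives called a member it tested, where AREG is left out in the comparisons with co-treated cells. With at least 10 counts in every library AREG, EREG and NRG1 were not tested, and DESeq2 gave no adjusted p for AREG, EREG, HBEGF, NRG1 and EGFR in alcohol vs. control and for EREG, NRG1 and EGFR in co-treated vs. control. Of 326 member values under alternatives, 300 moved by less than their spread or kept direction and call, 9 moved (all AREG in the comparisons with co-treated cells) and 17 changed sign. EREG ranged from -0.24 to 0.10 with libraries left out in alcohol vs. control and from -1.18 to 0.00026 in co-treated vs. alcohol, HBEGF from -0.01 to 0.36 in alcohol vs. control, and ERBB2 from -0.19 to 0.04 in co-treated vs. control. ERBB4 ranged from -0.07 to 0.25, from -0.25 to 0.06 and from -0.15 to 0.13 in alcohol vs. control, co-treated vs. alcohol and co-treated vs. control, and was 0.00069 with at least 10 counts in every library, 0.03 with limma on log2(FPKM + 1) and 0.04 on log2(FPKM + 0.1) in the last. NRG1 in co-treated vs. alcohol ranged from -0.48 to 0.27 and was 0.06 and 0.09 with limma. The alcohol vs. control medians ranged from -0.56 to 0.0039 for ERK-induced transcripts and from -0.14 to 0.17 for YAP targets (alternatives for medians and for SPRY4, ETV1 and ANKRD1 were chosen after seeing the data). SPRY4 and ETV1 each lost their call under 5 alternatives and ANKRD1 under 7, limma among them, and their estimates stayed negative.

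Counts of genes called over the whole table moved more, and the cause was not tested. In alcohol vs. control (10 called) they were 68 with DESeq2, 0 and 2 with limma, 2 without a filter, 26 with at least 10 counts, 3 with only the groups compared and 1 to 220 with libraries left out. In co-treated vs. alcohol (2 called) they were 5, 1 with log2(FPKM + 1), 1, 0, 4 and 1 to 24 in the same order. In co-treated vs. control (54 called) they were 113 with DESeq2, 2 and 3 with limma, 15 without a filter, 158 with only the groups compared and 2 to 184 with libraries left out.

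With the replicate number as a block, 48, 5 and 136 genes were called and no member, with AREG again left out in the comparisons with co-treated cells. Replicate differences correlated at 0.114 for control and alcohol, -0.0162 for control and co-treated and 0.0412 for alcohol and co-treated cells, so the numbers were not taken to pair the libraries. Low counts limit AREG, EREG, NRG1, EGFR, BTC and TGFA most.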
